A study of Mus musculus with 9 samples.

Results

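The report covers 10 genes of glutathione S-transferases, taken by symbol from a table of 17963 mouse genes. They were Gsta1 (Entrez gene 14857), Gsta2 (14858), Gsta3 (14859) and Gsta4 (14860) of the alpha class, and Gstm1 (14862), Gstm2 (14863) and Gstm5 (14866) of the mu class. The others were Gstp1 (14870) of the pi class, Gstt1 (14871) of the theta class and the membrane-bound Mgst1 (56615). RNA from cortical kidney tissue was sequenced on day 4 in 9 libraries, 3 from each of 3 groups of wild-type mice. The cisplatin+YSJZD group had cisplatin, a platinum chemotherapy drug toxic to tubule cells, into the peritoneum and YSJZD (Yishen Jiangzhuo decoction, a herbal medicine) into the stomach. The cisplatin group had cisplatin into the peritoneum and pure water into the stomach, and the control group had saline into the peritoneum and pure water into the stomach. The labels name no strain, age, sex or dose. Nor do the sources say that each sample came from its own mouse, so p-values may reflect a spread that is technical. Library totals lay between 15029286 and 16690482 expected counts.

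Glutathione S-transferases join the tripeptide glutathione to reactive electrophiles, and several of them also reduce lipid peroxides. The conjugates are exported, trimmed by peptidases of the tubule brush border and acetylated to mercapturic acids, a route that is especially active in the proximal tubule. Many transferase genes are known targets of NRF2, the transcription factor that answers oxidative and electrophilic stress and binds DNA as a pair with a small Maf protein.

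Promoter windows are shown first for the 4 members that were higher with cisplatin than in control, since these are the genes the results turn on. Each window is RefSeq sequence of GRCm38.p6, runs from 250 bases before to 50 bases after the gene start, and is written 5′ to 3′ on the gene's strand. Windows of the table matched 9 of the 10 members by symbol, and 2 members had a second window. The windows printed are chr9:78230419-78230718 (plus strand) for Gsta1, chr9:78347096-78347395 (minus strand) for Gsta2, chr3:107895604-107895903 (plus strand) for Gstm5 and chr6:138140277-138140576 (plus strand) for Mgst1. Capitals mark a match to TGACNNNGC, the core of the element bound by NRF2, or to TGANTCA, the element bound by AP-1, where N is any base and both strands were searched.
Gsta1: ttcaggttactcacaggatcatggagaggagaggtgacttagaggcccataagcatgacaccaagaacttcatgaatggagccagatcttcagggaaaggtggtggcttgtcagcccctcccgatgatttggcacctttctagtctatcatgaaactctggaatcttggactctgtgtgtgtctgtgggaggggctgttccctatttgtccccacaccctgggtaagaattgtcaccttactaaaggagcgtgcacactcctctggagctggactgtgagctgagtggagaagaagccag
Gsta2: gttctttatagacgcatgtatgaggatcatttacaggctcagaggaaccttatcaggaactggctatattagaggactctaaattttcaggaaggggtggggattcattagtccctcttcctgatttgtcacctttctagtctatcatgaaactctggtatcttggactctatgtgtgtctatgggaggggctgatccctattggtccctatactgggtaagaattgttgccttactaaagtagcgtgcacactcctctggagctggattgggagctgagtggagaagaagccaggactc
Gstm5: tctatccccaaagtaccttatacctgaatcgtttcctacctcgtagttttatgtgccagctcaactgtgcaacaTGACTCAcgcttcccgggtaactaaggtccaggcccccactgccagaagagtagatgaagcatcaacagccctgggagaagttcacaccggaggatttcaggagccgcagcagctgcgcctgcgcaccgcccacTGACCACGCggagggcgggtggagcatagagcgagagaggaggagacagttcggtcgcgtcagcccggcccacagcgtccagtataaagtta
Mgst1: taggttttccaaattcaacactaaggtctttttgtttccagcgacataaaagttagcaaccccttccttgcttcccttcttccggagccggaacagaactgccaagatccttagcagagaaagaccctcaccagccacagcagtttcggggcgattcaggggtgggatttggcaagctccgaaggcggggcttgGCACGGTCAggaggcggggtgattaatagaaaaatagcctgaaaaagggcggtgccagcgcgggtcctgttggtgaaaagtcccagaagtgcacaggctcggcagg
The Gstm5 window holds TGACCACGC 42 bases upstream of the start and TGACTCA 176 bases upstream. The first Mgst1 window, the one printed, holds GCACGGTCA 56 bases upstream, which reads as the NRF2 element on the other strand. No match lies in the Gsta1 and Gsta2 windows, whose letters align at 77.3% of positions. Of the remaining members, Gsta3 has TGACATTGC 121 bases upstream and Gstp1 has the AP-1 match TGAGTCA 74 bases upstream. The NRF2 element was thus found in 3 of 9 members and the AP-1 element in 2 of 9, counting a match in any of the 11 windows of these members. Over all 32851 promoter windows of the table, each counted singly and not by gene, 12.4% hold the NRF2 element and 7.81% the AP-1 element. The pair of motifs can share bases in a sequence, but the matches in Gstm5 do not overlap. A match describes letters in these windows and shows no binding. Bases further upstream were not searched, so a window without a match does not show that the gene lacks the element.

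Levels between genes were compared in FPKM, the deposited unit per length of transcript. In cisplatin+YSJZD libraries the order was Gstm1 (770 ± 64.0 FPKM, SD, n = 3), Gstp1 (664 ± 39.8), Gstm5 (497 ± 83.4), Mgst1 (195 ± 38.4), Gstt1 (144 ± 69.8) and Gsta2 (131 ± 18.5). Below them came Gsta3 (69.0 ± 15.8 FPKM), Gstm2 (36.4 ± 13.6), Gsta4 (16.5 ± 2.08) and Gsta1 (3.96 ± 2.03). The libraries of Mgst1 and Gstt1 overlapped there, as did those of Gstt1 and Gsta2 and those of Gsta3 and Gstm2, and the other neighbours did not.

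In cisplatin libraries Gstm1 again had the highest level (723 ± 153 FPKM, SD, n = 3), and its libraries overlapped with those of Gstm5 (565 ± 116). Gstm5 in turn overlapped with Gstp1 (543 ± 70.2 FPKM), which stood above Mgst1 (257 ± 50.3) in every library. From Mgst1 down each neighbour overlapped with the next, through Gsta2 (196 ± 90.8 FPKM), Gstt1 (94.6 ± 36.1), Gstm2 (54.6 ± 25.0), Gsta3 (36.1 ± 11.5), Gsta4 (30.7 ± 12.1) and Gsta1 (11.4 ± 10.9).

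In control libraries Gstm1 (706 ± 171 FPKM, SD, n = 3), Gstp1 (401 ± 80.5), Gstm5 (174 ± 25.8) and Gstt1 (69.6 ± 33.8) followed each other without overlap. Next came Gstm2 (43.0 ± 16.9 FPKM), which overlapped with Gstt1 above it and with Mgst1 (26.5 ± 0.714) below it. Gsta4 (21.8 ± 3.47 FPKM), Gsta3 (20.4 ± 6.50) and Gsta2 (14.9 ± 5.71) overlapped as neighbours, and Gsta1 lay far below them at 0.157 ± 0.199. Mgst1 stood at place 6 in control and at place 4 in both groups given cisplatin. Gsta2 stood at place 6 with cisplatin+YSJZD, at place 5 with cisplatin and at place 9 in control.

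Summed over the 10 genes, the level was 2527 ± 85.6 FPKM in cisplatin+YSJZD libraries, 2511 ± 328 in cisplatin libraries and 1476 ± 226 in control libraries (SD, n = 3 each). The lowest sum was 2443 FPKM with cisplatin+YSJZD and 2138 with cisplatin, and the highest control sum was 1711. FPKM is scaled by library totals alone, and the gap was narrower in CPM (counts scaled to a common library total, with TMM factors). The CPM sums were 2087 ± 44.3 with cisplatin+YSJZD, 2010 ± 320 with cisplatin and 1476 ± 202 in control. The lowest cisplatin sum was then 1648 CPM and the highest control sum 1639 CPM. Gstm1 held 30.5% ± 3.50 of the FPKM sum with cisplatin+YSJZD, 28.6% ± 2.63 with cisplatin and 47.5% ± 4.56 in control. The share of Gstm5 was 19.6% ± 2.61 with cisplatin+YSJZD, 22.6% ± 4.23 with cisplatin and 12.1% ± 3.03 in control. That of Mgst1 was 7.69% ± 1.32 with cisplatin+YSJZD, 10.3% ± 1.74 with cisplatin and 1.82% ± 0.259 in control. The alpha class as a whole made up 8.75% ± 0.864 with cisplatin+YSJZD, 10.9% ± 3.52 with cisplatin and 3.94% ± 1.16 in control. These shares describe the libraries and were not tested.

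**Figure D1:**
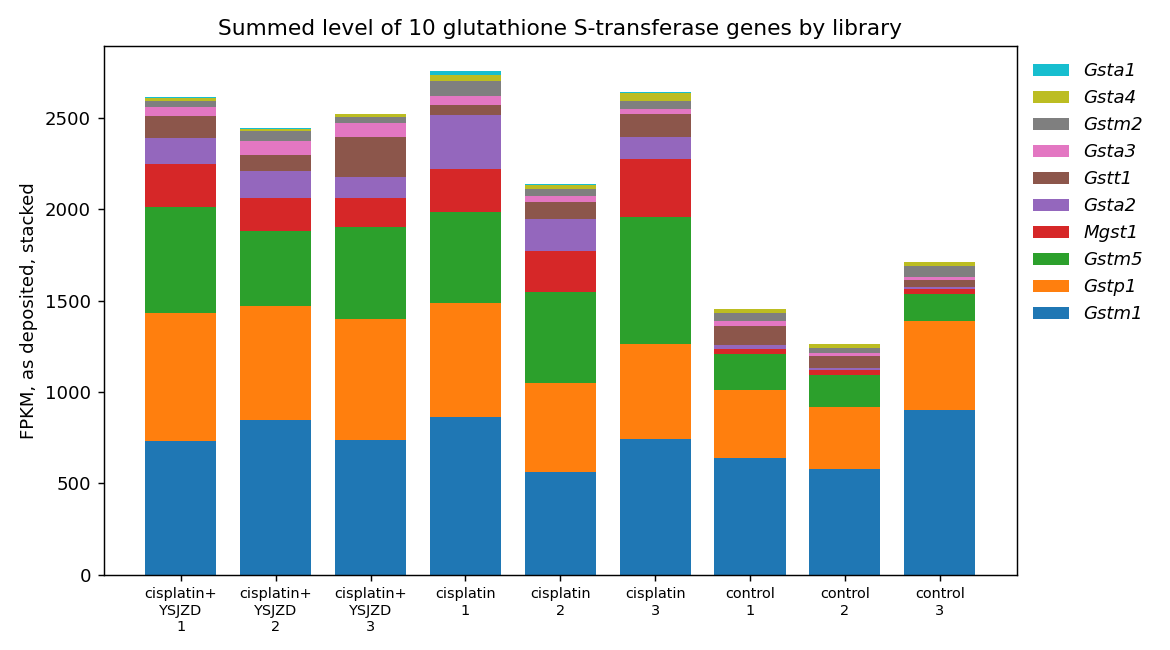
Deposited FPKM of the 10 transferase genes, stacked for each of the 9 libraries, with cisplatin+YSJZD left, cisplatin in the middle and control right. The stacks of the 6 libraries given cisplatin reach between 2138 and 2756 FPKM and those of control between 1261 and 1711, while the Gstm1 block at the foot of the stacks overlaps between groups. FPKM is scaled by library totals alone, without TMM factors.

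The comparison of cisplatin with control addresses what the drug changed. Gsta1, Gsta2, Mgst1 and Gstm5 were higher with cisplatin, and no member was lower at an adjusted p under 0.05 (edgeR quasi-likelihood test, Benjamini-Hochberg over all genes tested). All 10 members passed the filter on low counts, Gsta1 through the groups given cisplatin. Called members were 4 higher and 0 lower of 10, while 54.6% of the 13954 genes tested were called, 28.6% higher and 26% lower. The median log2 fold change was 0.43 over the 10 members and 0.04 over all genes tested. In 4 of the 10 the libraries of the groups did not overlap, and over all genes that share was 63.4%.

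The comparison of cisplatin+YSJZD with cisplatin addresses whether the decoction altered the picture. Here Gsta3 was higher and Gsta4 lower, and the other 8 members did not pass. Over all genes tested 35.4% were called, 17.4% higher and 18% lower. The median log2 fold change was -0.27 over the members and -0.01 over all genes. The libraries of the groups did not overlap for Gsta3, Gsta4 and Gstp1, 3 of 10 members, against 47.3% of all genes.

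Set against control, cisplatin+YSJZD libraries had 6 members higher, namely Gsta1, Gsta2, Gsta3, Gstm5, Gstp1 and Mgst1, and 0 lower. Over all genes tested 19.3% were called in that comparison, 9.93% higher and 9.37% lower. The median log2 fold change was 1.07 over the members and 0.01 over all genes. In 7 of 10 members the libraries did not overlap, Gsta4 being the seventh, and over all genes that share was 40.4%. The 3 comparisons share libraries with each other, so the values below are set side by side and are not independent of each other.

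**Figure D2:**
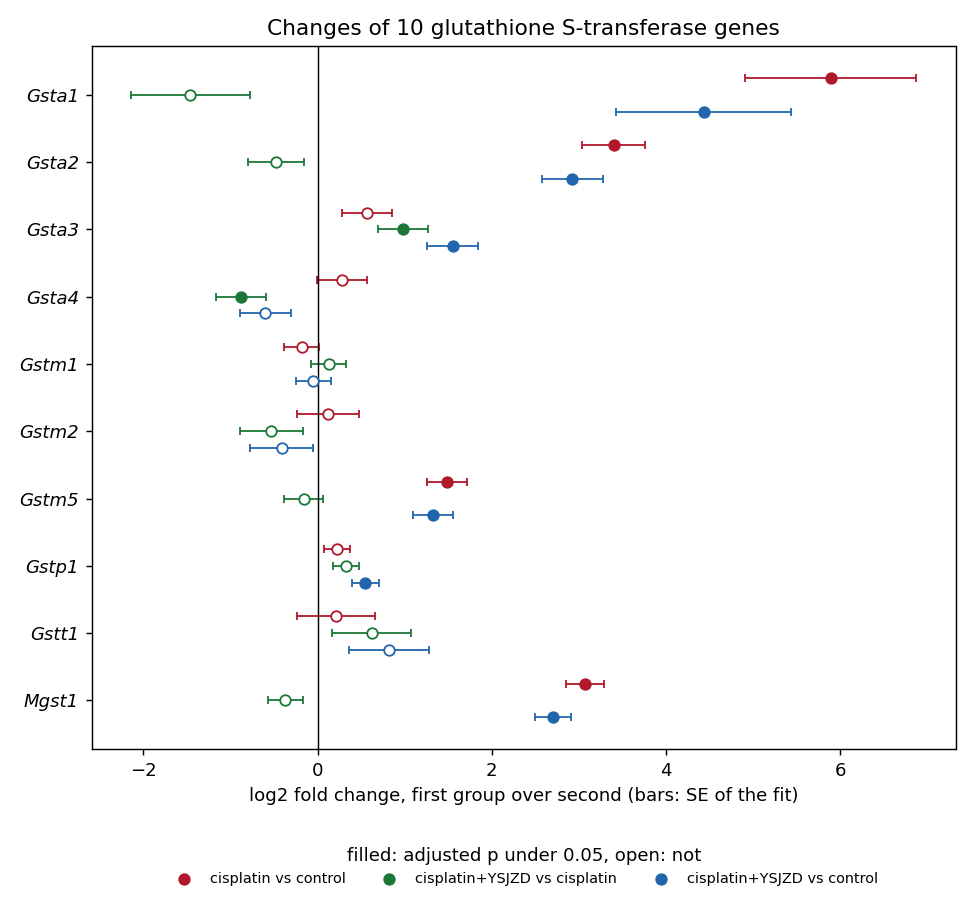
Log2 fold changes of the 10 genes in cisplatin against control (red), cisplatin+YSJZD against cisplatin (green) and cisplatin+YSJZD against control (blue), with bars of 1 SE of the fit and filled points for an adjusted p under 0.05. The red and blue points of Gsta1, Gsta2, Gstm5 and Mgst1 are filled and lie to the right of 0. For Gsta3 and Gstp1 the blue point is filled to the right of 0 and the red one is open. In the green comparison the points of Gsta3 and Gsta4 alone are filled.

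Mgst1 encodes a transferase and peroxidase of the endoplasmic reticulum and the outer mitochondrial membrane. It had 182, 143 and 122 CPM (counts scaled to a common library total, with TMM factors) in cisplatin+YSJZD libraries, 165, 163 and 251 CPM in cisplatin libraries and 23.8, 22.8 and 22.3 CPM in control libraries. The control libraries lay close together and far below every library given cisplatin, and the 2 groups given cisplatin overlapped. Cisplatin against control gave a log2 fold change of 3.07 ± 0.22 (SE, 8.40-fold, adjusted p = 3.53e-06). It was 2.70 ± 0.21 in cisplatin+YSJZD against control (6.48-fold, adjusted p = 6.06e-05), and -0.37 ± 0.20 in cisplatin+YSJZD against cisplatin did not pass (adjusted p = 0.165).

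Gsta2, a soluble alpha transferase that also reduces lipid hydroperoxides, had 105, 107 and 82.0 CPM in cisplatin+YSJZD libraries. Cisplatin libraries had 202, 120 and 87.5 CPM and control libraries 19.3, 10.1 and 9.53 CPM. The lowest library given cisplatin had a level far above the highest control library, while the 2 groups given cisplatin overlapped. Cisplatin libraries were higher than control by a log2 fold change of 3.40 ± 0.36 (SE, 10.5-fold, adjusted p = 3.6e-05), and cisplatin+YSJZD libraries by 2.92 ± 0.35 (7.56-fold, adjusted p = 0.000551). Between the groups given cisplatin it was -0.48 ± 0.32 (adjusted p = 0.275).

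Gsta1, the close copy of Gsta2, was nearly absent from control libraries. It had 4.26, 1.57 and 2.25 CPM in cisplatin+YSJZD libraries, 15.2, 3.25 and 3.78 CPM in cisplatin libraries and 0.0727, 0.291 and 0 CPM in control libraries. Cisplatin replicate 1 stood far above the other libraries, and control libraries held 5 counts in all. The log2 fold change was 5.89 ± 0.98 (SE) in cisplatin against control (adjusted p = 0.000547), 4.43 ± 1.00 in cisplatin+YSJZD against control (adjusted p = 0.0113) and -1.46 ± 0.68 in cisplatin+YSJZD against cisplatin (adjusted p = 0.118). The direction against control held with each library left out, but the size did not. In cisplatin against control it was 4.81 when cisplatin replicate 1 was left out, 7.45 when control replicate 2 was and 5.29 when control replicate 3 was. For cisplatin+YSJZD against control these were 6.0 for control replicate 2 and 3.84 for control replicate 3, and leaving out control replicate 1 gave 4.20 and lost the call (adjusted p = 0.0557).

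Reads of these alpha genes can be divided between near-identical copies. Coding sequences of Gsta1 and Gsta2 were identical at 97.5% of bases, those of Gsta1 and Gm3776 at 99.7% and those of Gsta2 and Gm10639 at 98.5% (longest reading frame in GENCODE vM21). Of the counts of these 4 genes, Gsta2 took 87.8%, 94.3% and 89.0% in cisplatin+YSJZD libraries, 70.9%, 88.0% and 87.1% in cisplatin libraries and 92.0%, 86.3% and 96.0% in control libraries. In cisplatin replicate 1, where Gsta2 had its lowest share, Gm10639 took 20.9%. The counts of the 4 genes summed to 2054, 1728 and 1554 in cisplatin+YSJZD libraries, 5247, 2399 and 1620 in cisplatin libraries and 288, 161 and 150 in control libraries. Fitted as 1 feature, Gsta1 and Gsta2 together had a log2 fold change of 3.46 ± 0.37 (SE, adjusted p = 3.62e-05) in cisplatin against control. The same sum had 2.94 ± 0.36 (adjusted p = 0.000572) in cisplatin+YSJZD against control and -0.52 ± 0.33 (adjusted p = 0.247) in cisplatin+YSJZD against cisplatin. With Gm10639 and Gm3776 added, the sum had 3.62 ± 0.41 (adjusted p = 5.74e-05) in cisplatin against control, 2.93 ± 0.40 (adjusted p = 0.00107) in cisplatin+YSJZD against control and -0.68 ± 0.37 (adjusted p = 0.176) in cisplatin+YSJZD against cisplatin. Both sums were called against control and not between the groups given cisplatin. Fitted by itself, Gm3776 was called lower in cisplatin+YSJZD against cisplatin (-2.06 ± 0.68, adjusted p = 0.0376), though the libraries of the groups overlapped. Gm10639 by itself was not called there (-1.93 ± 0.76, adjusted p = 0.0707). The split between Gsta1 and Gsta2 is less certain than the errors say.

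Gsta3, an alpha transferase known in the mouse for conjugating the epoxide of aflatoxin, had its highest levels with the decoction. It had 60.7, 95.4 and 90.2 CPM in cisplatin+YSJZD libraries, 54.5, 36.3 and 33.9 CPM in cisplatin libraries and 39.2, 26.3 and 18.5 CPM in control libraries. The cisplatin+YSJZD libraries lay above every other library, and the cisplatin and control libraries overlapped. Against cisplatin the log2 fold change of cisplatin+YSJZD was 0.98 ± 0.29 (SE, 1.97-fold, adjusted p = 0.0231), and against control it was 1.55 ± 0.29 (2.93-fold, adjusted p = 0.0053). Cisplatin against control did not pass, at 0.57 ± 0.29 (adjusted p = 0.117), but did with libraries scaled by their totals alone (0.83, adjusted p = 0.0295) and without control replicate 1 (0.89, adjusted p = 0.0299). The difference between the groups given cisplatin missed the threshold when cisplatin+YSJZD replicate 2 (adjusted p = 0.0764), cisplatin+YSJZD replicate 3 (0.0696), cisplatin replicate 2 (0.0726) or cisplatin replicate 3 (0.0667) was left out. Its coding sequence was identical to that of Gsta1 at 74.7% of bases, well below the identity within the alpha pair.

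Gsta4, which conjugates 4-hydroxynonenal, a product of lipid peroxidation, was lower with the decoction. It had 14.4, 11.3 and 12.6 CPM in cisplatin+YSJZD libraries, 20.2, 15.0 and 35.5 CPM in cisplatin libraries and 23.9, 16.4 and 17.8 CPM in control libraries. The cisplatin+YSJZD libraries lay below every other library, and cisplatin replicate 3 stood far above the rest. Against cisplatin, cisplatin+YSJZD had a log2 fold change of -0.88 ± 0.29 (SE, 1.84-fold lower, adjusted p = 0.0394). Without cisplatin replicate 3 it was -0.46 (adjusted p = 0.122), and the call was also lost without any 1 of the cisplatin+YSJZD libraries (adjusted p from 0.0584 to 0.119), control replicate 2 (0.0518) or control replicate 3 (0.056). It was lost as well in limma-voom (-0.78, adjusted p = 0.0714) and in a fit of the 6 libraries compared (-0.87, adjusted p = 0.071). Against control the value was -0.60 ± 0.29 (adjusted p = 0.19) for cisplatin+YSJZD and 0.28 ± 0.29 (adjusted p = 0.433) for cisplatin.

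Gstm5, a mu transferase, stood with Mgst1 and the alpha pair. It had 425, 307 and 357 CPM in cisplatin+YSJZD libraries, 340, 346 and 533 CPM in cisplatin libraries and 175, 146 and 115 CPM in control libraries. Every library given cisplatin was above every control library, and the 2 groups given cisplatin overlapped. The log2 fold change was 1.49 ± 0.23 (SE) in cisplatin against control (2.80-fold, adjusted p = 0.000351) and 1.32 ± 0.23 in cisplatin+YSJZD against control (2.5-fold, adjusted p = 0.00328). In cisplatin+YSJZD against cisplatin it was -0.16 ± 0.22 (adjusted p = 0.597).

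Gstm1, a mu transferase that acts on epoxides and had the highest level of the 10 genes per length in each group, had no call. It had 806, 946 and 792 CPM in cisplatin+YSJZD libraries, 888, 586 and 850 CPM in cisplatin libraries and 850, 720 and 1065 CPM in control libraries. The groups overlapped in each comparison. The log2 fold change was -0.18 ± 0.20 (SE, adjusted p = 0.469) in cisplatin against control, 0.13 ± 0.20 (adjusted p = 0.643) in cisplatin+YSJZD against cisplatin and -0.05 ± 0.20 (adjusted p = 0.892) in cisplatin+YSJZD against control. With libraries scaled by their totals alone the first and last values changed sign, to 0.04 and 0.13, and neither passed.

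Gstm2, another mu transferase, had 24.7, 45.8 and 24.1 CPM in cisplatin+YSJZD libraries. Cisplatin libraries had 67.1, 32.6 and 36.4 CPM and control libraries 43.3, 26.1 and 56.1 CPM. Libraries of a group differed widely and the groups overlapped. The log2 fold change was 0.12 ± 0.36 (SE, adjusted p = 0.802) in cisplatin against control, -0.53 ± 0.36 (adjusted p = 0.285) in cisplatin+YSJZD against cisplatin and -0.41 ± 0.36 (adjusted p = 0.476) in cisplatin+YSJZD against control. When the 7 Gstm genes of the table were summed into 1 feature, in which Gstm1 has most counts, the value was 0.19 (adjusted p = 0.393) in cisplatin against control, 0.02 (adjusted p = 0.929) in cisplatin+YSJZD against cisplatin and 0.22 (adjusted p = 0.449) in cisplatin+YSJZD against control. None of these passed. Fitted by themselves, Gstm5 and Gstm6 were higher and Gstm4 was lower against control in both groups given cisplatin.

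Gstp1, the pi transferase, which also binds and restrains the stress kinase JNK in mouse cells, had a narrow range. It had 402, 362 and 370 CPM in cisplatin+YSJZD libraries, 329, 266 and 308 CPM in cisplatin libraries and 256, 218 and 300 CPM in control libraries. The cisplatin+YSJZD libraries lay above every other library, and cisplatin and control libraries overlapped. Against control, cisplatin+YSJZD had a log2 fold change of 0.55 ± 0.15 (SE, 1.47-fold, adjusted p = 0.0294). It was 0.33 ± 0.15 (adjusted p = 0.114) in cisplatin+YSJZD against cisplatin and 0.22 ± 0.15 (adjusted p = 0.235) in cisplatin against control, where scaling by totals alone gave 0.45 (adjusted p = 0.0354). The call against control was lost without cisplatin+YSJZD replicate 1 (adjusted p = 0.0747), replicate 2 (0.0517) or replicate 3 (0.0668), control replicate 1 (0.083) or control replicate 2 (0.121). Its copy Gstp2 has a coding sequence identical at 98.1% of bases, and the 3 Gstp genes summed had a log2 fold change of 0.56 (adjusted p = 0.0229) in cisplatin+YSJZD against control.

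Gstt1, the theta transferase known for acting on small halogenated compounds, had 103, 78.8 and 187 CPM in cisplatin+YSJZD libraries. Cisplatin libraries had 46.0, 78.7 and 116 CPM and control libraries 109, 64.2 and 35.0 CPM. The spread within each group was wide and the groups overlapped. None of the comparisons passed, with a log2 fold change of 0.21 ± 0.45 (SE, adjusted p = 0.719) in cisplatin against control, 0.62 ± 0.45 (adjusted p = 0.319) in cisplatin+YSJZD against cisplatin and 0.82 ± 0.46 (adjusted p = 0.243) in cisplatin+YSJZD against control.

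**Figure D3:**
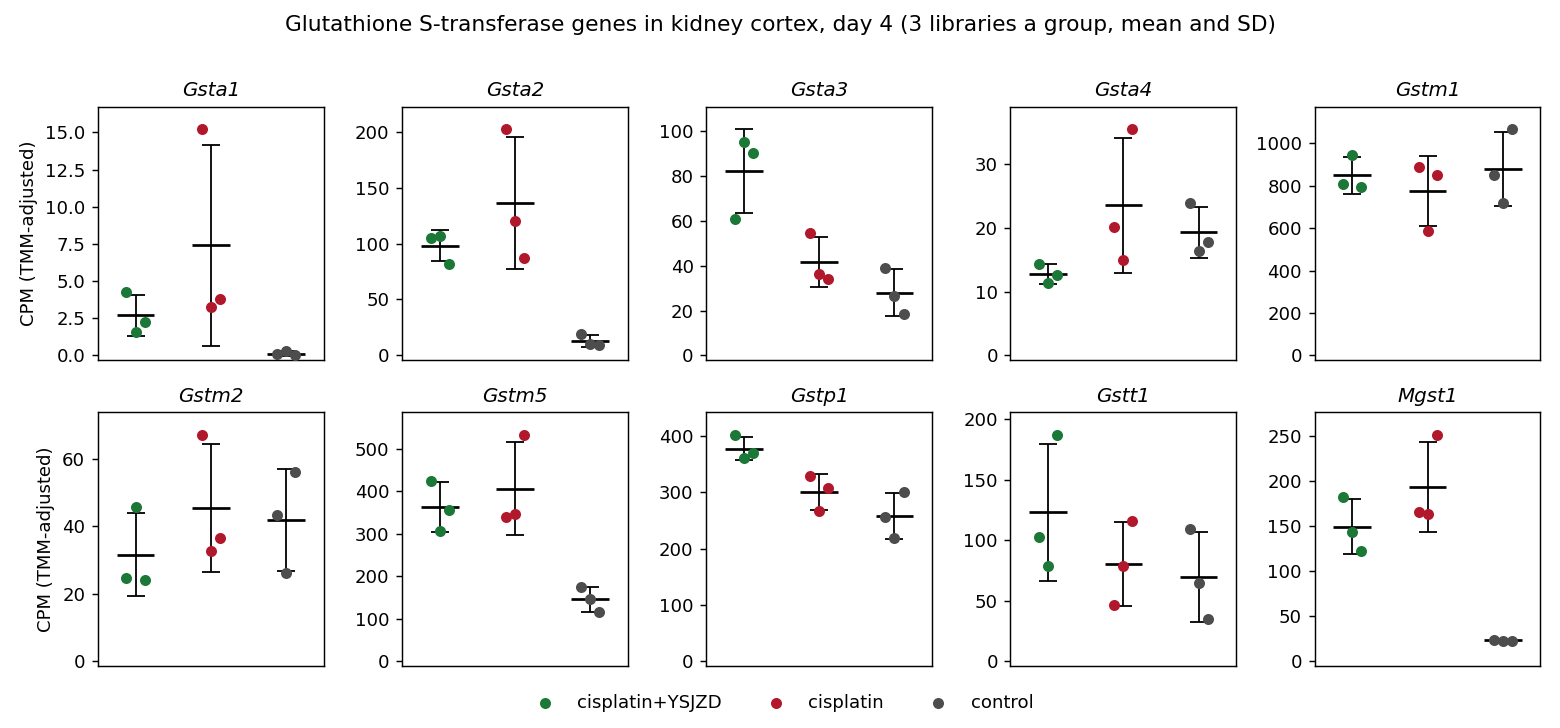
CPM of each of the 10 genes in every library, with the mean and SD of 3 libraries, cisplatin+YSJZD (green) left, cisplatin (red) in the middle and control (grey) right, each panel with its own axis from 0. In the panels of Gsta1, Gsta2, Gstm5 and Mgst1 the control points lie below all others, in those of Gsta3 and Gstp1 the cisplatin+YSJZD points lie above all others, and in that of Gsta4 they lie below.

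Across the 9 libraries, log2 CPM of Gstm5 and Mgst1 had a Pearson r of 0.97, Gsta2 and Mgst1 of 0.94, Gsta1 and Gsta2 of 0.92 and Gsta2 and Gstm5 of 0.90. The libraries fall into 3 groups, with control apart from the others in each of these 4 genes, and share depth and scaling. Gstm1 followed none of these 4 genes, with r from -0.28 for Gstm5 to -0.22 for Gsta1, Gsta2 and Mgst1, and 0.61 for its neighbour in class Gstm2. The lowest value between members was -0.69, for Gstm2 and Gstt1. Among the 9638 other genes that averaged at least 10 CPM, those most like Gstm1, the member with the highest FPKM in control and in cisplatin, were Madd (r = 0.935), Lcmt2 (0.859) and Tnks (0.829). These are the highest of 9638 values over 9 libraries. Values of this size can arise by chance among so many, and none was tested. The 2 transcripts listed for Gsta2 shared its counts unevenly between libraries. The predicted RefSeq model held 47.8%, 41.4% and 59.9% of them in cisplatin+YSJZD libraries, 41.7%, 34.5% and 27.8% in cisplatin libraries and 47.8%, 79.6% and 47.4% in control libraries.

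Markers of cell types differed between the groups. Summed over 13 proximal tubule markers, the level was 5783 to 12111 CPM in cisplatin+YSJZD libraries, 1183 to 1974 CPM in cisplatin libraries and 19652 to 22535 CPM in control libraries, with no marker at 0 in a group. In cisplatin against control 12 of these 13 were lower and 0 higher, and in cisplatin+YSJZD against cisplatin 13 were higher. Of all genes tested 28.6% were higher and 26% lower in the first comparison, and 17.4% and 18% in the second. The 5 thick limb markers summed to 1861 to 3703 CPM with cisplatin+YSJZD, 811 to 1869 CPM with cisplatin and 3251 to 6698 CPM in control. In cisplatin against control 4 of these 5 were lower and 0 higher. The 9 markers of distal tubule and collecting duct summed to 605 to 851 CPM with cisplatin+YSJZD, 276 to 601 CPM with cisplatin and 1045 to 1129 CPM in control, with 7 of 9 lower and 0 higher in cisplatin against control. In bulk tissue, fewer cells of a type and less RNA per cell cannot be told apart. The 7 macrophage markers summed to 72.2 to 108 CPM with cisplatin+YSJZD, 247 to 753 CPM with cisplatin and 85.0 to 121 CPM in control. The 6 neutrophil markers summed to 3.73 to 8.05 CPM with cisplatin+YSJZD, 23.1 to 60.0 CPM with cisplatin and 1.31 to 1.45 CPM in control. The sums of 6 fibroblast and pericyte markers were 214 to 268 CPM with cisplatin+YSJZD, 272 to 748 CPM with cisplatin and 136 to 259 CPM in control. The 7 endothelial markers summed to 191 to 238 CPM with cisplatin+YSJZD, 244 to 545 CPM with cisplatin and 350 to 438 CPM in control. Higher in cisplatin against control were 6 of 7 macrophage markers, 5 of 5 tested neutrophil markers and 6 of 6 fibroblast and pericyte markers, and 0 were lower. Of the 7 endothelial markers 1 was higher, 2 were lower and 4 were not called. Leaving out 1 library gave 5 to 6 macrophage, 5 neutrophil and 4 to 6 fibroblast and pericyte markers higher. Endothelial markers were then 0 to 3 higher and 1 to 2 lower. Cisplatin replicate 3 had the lowest sums of its group for the proximal tubule (1183 CPM), macrophages (247 CPM), fibroblasts and pericytes (272 CPM) and endothelium (244 CPM). It had the highest sum of its group for the thick limb (1869 CPM), and the highest Mgst1, Gstm5, Gsta4 and Gstt1 of its group. Its Gsta2 (87.5 CPM) and Gsta3 (33.9 CPM) were the lowest of its group, and its other members lay between the 2 other cisplatin libraries. Hepatocyte markers, 6 genes of an organ rich in transferases, summed to 1.3 to 1.9 CPM with cisplatin+YSJZD, 1.61 to 2.85 CPM with cisplatin and 3.35 to 8.0 CPM in control, with Tat at 0 in cisplatin+YSJZD and control libraries and Cyp3a11 at 0 in cisplatin libraries. The part of these cell types in the transferase values was not tested.

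Other glutathione transferase genes were taken from a list of 20, of which 18 were in the table and 14 were tested. In cisplatin against control 4 were higher and 3 lower, with a median log2 fold change of -0.05, where 28.6% of all genes tested were higher and 26% lower. With 1 library left out, 3 to 5 were higher and 3 to 5 lower. The omega enzyme Gsto1, which removes glutathione from proteins, was higher at 105 ± 20.1 CPM against 24.9 ± 6.39 in control (SD, n = 3 each, log2 fold change 2.07 ± 0.21, SE). Also higher were Hpgds, the haematopoietic prostaglandin D synthase, at 3.72 ± 0.57, the mu gene Gstm6 at 3.05 ± 0.48, and Ptges, the microsomal prostaglandin E synthase, at 1.12 ± 0.40. The call of Ptges was lost without cisplatin replicate 2 or 3 or any 1 control library (adjusted p from 0.073 to 0.124). Gstz1, the maleylacetoacetate isomerase of tyrosine breakdown, was lower at 142 ± 24.2 CPM against 460 ± 85.3 in control (-1.69 ± 0.20). The mu gene Gstm4 (-1.31 ± 0.17) and the kappa gene Gstk1 of mitochondria and peroxisomes (-1.15 ± 0.24) were lower as well.

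With the decoction added to cisplatin, 4 of these 14 were higher and 2 lower, with a median of 0.40, and of all genes tested 17.4% were higher and 18% lower. With 1 library left out these were 2 to 6 higher and 1 to 2 lower. Gstz1 was higher at 328 ± 55.0 CPM, against 142 ± 24.2 with cisplatin (1.21 ± 0.20), and so were Gstk1 (0.83 ± 0.23), Gstm4 (0.66 ± 0.16) and the microsomal Mgst3 (0.55 ± 0.16). Hpgds (-2.59 ± 0.52) and Gsto1 (-0.72 ± 0.20) were lower. Leaving out 1 library took the call from Gstk1 in 4 of 9 cases (adjusted p from 0.0557 to 0.0681), from Gsto1 in 3 (0.057 to 0.0677) and from Mgst3 in 3 (0.0613 to 0.0781). Against control, cisplatin+YSJZD libraries had 4 higher and 1 lower, with a median of 0.48, against 9.93% and 9.37% of all genes. With 1 library left out, 2 to 4 were higher and 0 to 1 lower. Gstp2 (1.51 ± 0.47) and Mgst3 (0.53 ± 0.16), both higher, each lost the call in 7 of 9 cases (adjusted p from 0.053 to 0.148 and from 0.0522 to 0.141). Gstm4, the lower one (-0.65 ± 0.16), lost it in 4 (0.0584 to 0.0608). The 7 genes not called in cisplatin against control were Gstm7, Gstp2, Gstp3, Gstt2, Gstt3, Gstcd and Mgst3, with values from -0.31 (Gstt2) to 1.19 (Gstp2). Gstm3, Gstt4, Gsto2 and Mgst2 were removed by the filter, and no group mean of theirs was above 0.628 CPM.

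Glutathione synthesis and recycling was followed in 15 genes, of which 3 were higher and 6 lower in cisplatin against control (median -0.45, with 28.6% of all genes higher and 26% lower). The cysteine and glutamate carrier Slc1a1 (-1.76 ± 0.12, log2 fold change ± SE), the glutathione-cleaving Chac2 (-2.81 ± 0.22) and glutathione synthetase Gss (-1.59 ± 0.14) were lower, and the glutaredoxin Glrx was higher (2.09 ± 0.26). With the decoction added to cisplatin, 6 were higher and 2 lower (median 0.55, with 17.4% of all genes higher and 18% lower). Slc1a1 (1.38 ± 0.12), Chac2 (1.56 ± 0.22), Gss (0.90 ± 0.13) and Oplah, the oxoprolinase that returns glutamate (1.00 ± 0.15), were higher. Against control, cisplatin+YSJZD had 2 higher and 4 lower (median -0.05, with 9.93% of all genes higher and 9.37% lower). With 1 library left out, 1 to 3 were higher and 3 to 4 lower. Chac1 (1.96 ± 0.60), higher, lost its call in 6 of 9 cases (adjusted p from 0.0503 to 0.156), and Slc1a1 (-0.38 ± 0.12), lower, in 8 (0.0606 to 0.128).

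The mercapturic acid pathway processes the conjugates that transferases make. Of its 17 genes, 2 were higher, 12 lower and 3 not called in cisplatin against control, with a median of -2.34, where 28.6% of all genes tested were higher and 26% lower. Ggt1, the brush border enzyme that takes glutamate off glutathione conjugates, stood at 258 ± 43.9 CPM against 1895 ± 127 in control (SD, n = 3 each, log2 fold change -2.88 ± 0.18, SE). Acy3, which deacetylates mercapturic acids, stood at 235 ± 95.2 CPM against 4761 ± 345 in control (-4.34 ± 0.34). The aminoacylase Acy1 (-3.52 ± 0.24) and the cysteine conjugate lyase Kyat3 (-1.82 ± 0.12) were lower too. The exceptions were the peptidases Ggt5 (1.23 ± 0.35) and Dpep2 (6.52 ± 0.88), of which Dpep2 had 20.1 ± 18.9 CPM against 0.214 ± 0.195 in control. Ggt5 lost its call without cisplatin replicate 2 (adjusted p = 0.0576) or control replicate 1 (0.0533), and Dpep2 was between 5.4 without cisplatin replicate 2 and 7.49 without control replicate 1.

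Against cisplatin, 12 of the 17 genes in cisplatin+YSJZD libraries were higher and 1, Dpep2, was lower, with a median of 1.67, where 17.4% of all genes were higher and 18% lower. Ggt1 stood at 935 ± 112 CPM against 258 ± 43.9 with cisplatin (1.86 ± 0.17), Kyat3 at 127 ± 4.22 against 40.4 ± 2.58 (1.65 ± 0.12), Acy1 at 208 ± 61.9 against 49.8 ± 5.33 (2.06 ± 0.22) and the acetyltransferase gene Nat8f2 at 114 ± 30.1 against 21.9 ± 7.13 (2.39 ± 0.29). Against control, 8 of the 17 were lower and 0 higher with cisplatin+YSJZD, and the median was -0.81, where 9.93% of all genes were higher and 9.37% lower. The count lower was between 5 and 10 with 1 library left out. The proximal tubule markers also had more genes lower than higher against control and more higher than lower in cisplatin+YSJZD against cisplatin, and their part in these values was not tested.

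Export of conjugates was followed in 7 genes, of which 2 were higher and 3 lower in cisplatin against control (median 0.37, with 28.6% of all genes higher and 26% lower). The exporters Abcc3 (4.12 ± 0.50, log2 fold change ± SE) and Abcc4 (1.39 ± 0.21) were higher, and Abcc6 (-2.32 ± 0.25) and Abcg2 (-0.71 ± 0.15) were among the lower ones. Against cisplatin, cisplatin+YSJZD had 3 higher, Abcc6 (2.08 ± 0.25), Abcc2 (0.68 ± 0.22) and Abcg2 (0.47 ± 0.15), and 1 lower, Abcc3 (-1.60 ± 0.43), with a median of 0.21. Of all genes tested 17.4% were higher and 18% lower in that comparison. The call of Abcc3 was lost without cisplatin replicate 1 (adjusted p = 0.054) or 2 (0.0502), that of Abcg2 in 5 of 9 cases (0.0548 to 0.132) and that of Abcc2 in 7 of 9 (0.0509 to 0.121). Against control, 3 were higher and 0 lower with cisplatin+YSJZD (median 0.33), and between 1 and 3 were higher with 1 library left out. Of all genes tested 9.93% were higher and 9.37% lower there.

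NRF2, its regulators and its targets were followed in 28 genes, none of them among the 10 transferases and some on the lists above, of which 18 were higher and 3 lower in cisplatin against control (median 0.98, with 28.6% of all genes higher and 26% lower). The small Maf partner genes Maff (4.68 ± 0.27, log2 fold change ± SE) and Mafk (1.38 ± 0.13) and the epoxide hydrolase Ephx1 (3.20 ± 0.32) were higher, and the malic enzyme Me1 was lower (-2.02 ± 0.16). Against cisplatin, cisplatin+YSJZD had 3 higher and 5 lower, against 17.4% and 18% of all genes (median -0.25), with Maff (-1.14 ± 0.22), Mafk (-0.76 ± 0.13) and the cystine carrier Slc7a11 (-2.30 ± 0.39) lower and Me1 higher (0.79 ± 0.16). With 1 library left out the numbers were 1 to 4 higher and 4 to 9 lower. Against control, 13 were higher and 2 lower with cisplatin+YSJZD (median 0.56), and 7 to 13 were higher and 1 to 2 lower with 1 library left out, against 9.93% and 9.37% of all genes. Nfe2l2, which encodes NRF2, stood at 157 ± 22.3 CPM with cisplatin+YSJZD, 147 ± 19.9 with cisplatin and 79.8 ± 5.93 in control (SD, n = 3 each).

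**Figure D4:**
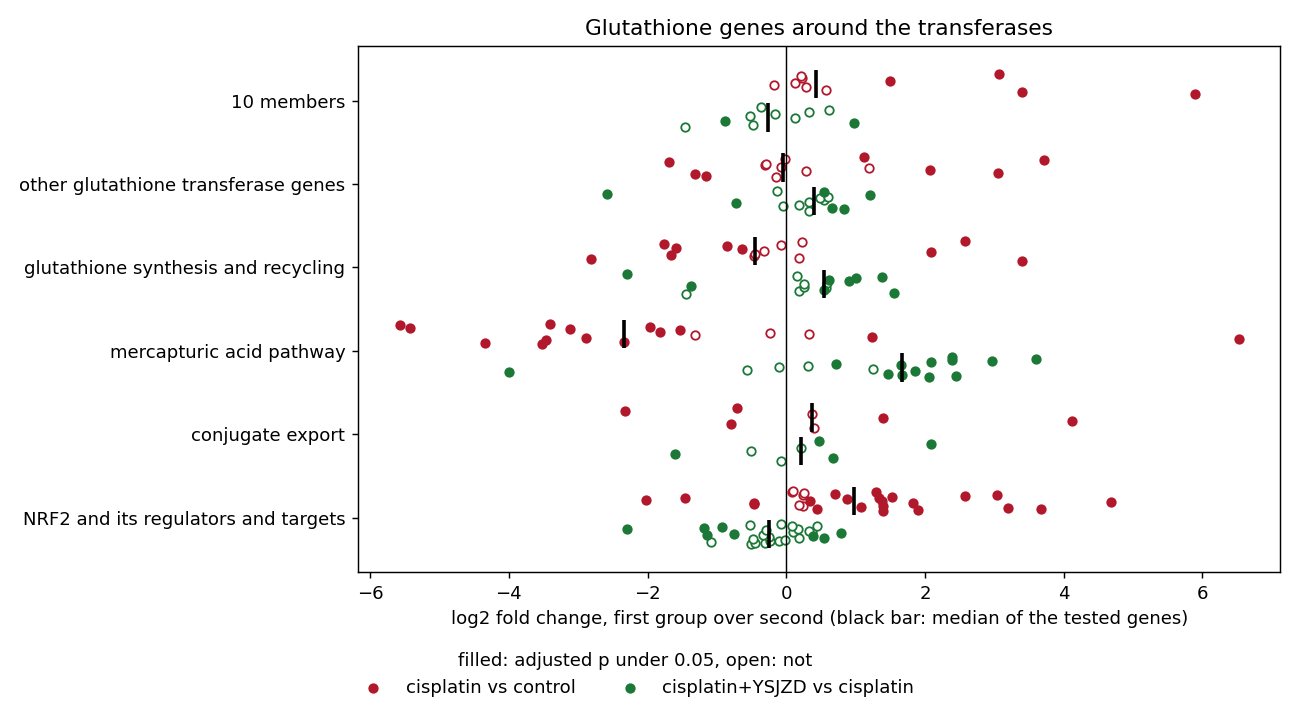
Log2 fold changes of the tested genes of each list in cisplatin against control (red) and in cisplatin+YSJZD against cisplatin (green), with black bars at the medians and filled points for an adjusted p under 0.05. The red median of the mercapturic acid pathway lies at -2.34 and its green median at 1.67, while those of the 10 members lie at 0.43 and -0.27.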

How the data were processed

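Gene expression was measured by RNA sequencing of total RNA on a DNBSEQ instrument, per the labels. The deposited table lists 58075 transcripts with 2 values per library. Its read count columns hold expected counts that the authors made with RSEM 1.3.1, per the submitters' processing notes, which also name DESeq2 1.4.5. Its second columns, deposited without a unit, were read as FPKM because of the transcript length they imply. By library, its median ratio to the transcript length minus 200 bases was 1.011 to 1.015. That median was taken over longer transcripts with many counts. The notes name GRCh38, a human build, and the mouse build is not given in the sources used here. The authors' 6 columns of group averages were not used.

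Expected counts were summed per Entrez gene and rounded, and 16.5% to 19.3% of gene counts were more than 0.005 from whole. Symbols came from the RefSeq table for 17847 genes, and 116 had none. All 9 libraries entered edgeR 4.0.16 (R 4.3.3) with filterByExpr, TMM factors (0.855 to 1.105) and group as the only term. The filter removed 4009 genes and left 13954, with a common biological coefficient of variation of 0.234. A call is a Benjamini-Hochberg adjusted p under 0.05 from the two-sided quasi-likelihood test. The fit was also run on simulated counts, with the same spread for every gene and few genes changed. That setting is simpler than these data, so the run cannot judge the calls here. RSEM divides reads between similar transcripts. At this depth 3 counts over a group are 0.0614 to 0.064 CPM, which covers counting error only.

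The members and lists were chosen with earlier results of these data known. Named are the 10 members, the list of other transferases, up to 4 called genes by smallest p of each further list in cisplatin against control and in cisplatin+YSJZD against cisplatin, and 3 genes most like the member of the highest FPKM. Ggt5, Dpep2 and Nfe2l2 were added after their values were seen. A gene of the list on conjugate export is not reported here. Alternatives were DESeq2 1.42.0 and its size factors, library totals, other filters, limma-voom (limma 3.58.1), 6 libraries, a replicate block, single libraries left out and summed paralogs.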

Additional observations from a re-analysis of the deposited data

How the results depend on the processing

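Over 19 alternatives the fold changes of Gsta2, Gstm5 and Mgst1 against control kept their direction and their call in both groups given cisplatin, except Gstm5 in the sum of Gstm genes. Gsta1 had no value under the filter of at least 5 CPM in 3 libraries. Members called higher in cisplatin against control were 3 under that filter and 6 with library totals alone, in place of 4. In cisplatin+YSJZD against cisplatin, the number of members called lower was 0 in place of 1 in limma-voom and in the fit of 6 libraries. With 1 library left out, members called higher were 4 to 5 in cisplatin against control, 0 to 1 in cisplatin+YSJZD against cisplatin and 4 to 6 in cisplatin+YSJZD against control, and members called lower were 0 to 1 in cisplatin+YSJZD against cisplatin. Genes called over all genes lay between 6576 and 7979, between 3496 and 4871, and between 1607 and 3138 in the same order, and the lowest of the last range came without control replicate 1 and 1686 without control replicate 2. With library totals alone the median of all genes was 0.27 in cisplatin against control and 0.20 in cisplatin+YSJZD against control, in place of 0.04 and 0.01. The share of calls that were higher was then 66.1% and 75.5%, in place of 52.4% and 51.4%, and Mgst1, Gstm5 and Gsta2 lie far above that shift.

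Values that changed sign belonged to members without a call, or came from a sum. In cisplatin against control these were Gstm1 (0.04 with library totals, 0.19 in the sums), Gstm2 (-0.28 without cisplatin replicate 1, -0.14 without control replicate 2, and up to 0.38 with another library left out), Gsta4 (-0.14 without cisplatin replicate 3, up to 0.53) and Gstt1 (-0.15 without cisplatin replicate 3, -0.12 without control replicate 3, up to 0.69). For cisplatin+YSJZD against cisplatin they were Gstm1 (-0.04 without cisplatin replicate 2, up to 0.24), Gstm5 (0.08 without cisplatin replicate 3, down to -0.29) and, in the sums, Gstm2 and Gstm5 (0.02). For cisplatin+YSJZD against control they were Gstm1 (0.13 with library totals, 0.11 without control replicate 3, down to -0.18) and, in the sums, Gstm1 and Gstm2 (0.22). The sums with Gm10639 and Gm3776 were chosen after seeing the data. The cause of these shifts was not tested, except that a sum gives each member its class value.

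Same-numbered libraries had correlations of deviations between -0.17 and 0.11, which gave no sign of pairing. Such values cannot show whether same-numbered samples were handled together. With the replicate block 7347, 4590 and 2367 genes were called, against 7615, 4942 and 2694 without it, and no member gained or lost a call. Depth limits Gsta1, with 5 counts over the control libraries.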
